A study of Daucus carota with 6 samples.

Results

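Growth-regulating factors are plant transcription factors that promote growth of leaves, roots and other organs, mainly by keeping cells dividing. They are defined by a QLQ domain, which binds co-activators called GRF-interacting factors, and a WRC domain, which binds DNA. In Arabidopsis most of them are held down by the microRNA miR396, and with their co-activators they recruit SWI/SNF chromatin remodelling complexes to target genes. The 7 carrot genes described here were taken by their IDs from a table of 35073 genes, and each carries an NR protein description as a growth-regulating factor. All 7 matched a RefSeq gene of carrot, and the 7 RefSeq genes were distinct. The numbers in the descriptions come from sequence similarity and do not name proven carrot counterparts of the Arabidopsis genes.

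RNA was taken from fleshy roots, the storage organ, of carrot (Daucus carota). The 3 BC samples came from betanin-transgenic carrots, stably transformed lines that carry the betalain synthesis genes CYP76AD1S, cDOPA5GTS and DODA1S and accumulate the red pigment betanin, and the 3 WT samples from non-transgenic carrots. The labels give neither the promoters of the introduced genes, the number of independent lines, the age of the plants nor whether the samples are separate plants, and the p-values therefore measure only the spread between these samples. Levels are FPKM, which scales fragments for transcript length and sequencing depth, so levels of different genes can be set side by side. Fold changes were fitted with limma as log2(FPKM + 1), BC minus WT, over the 21033 genes that reached 1 FPKM in 3 or more samples, and a gene was called at a Benjamini-Hochberg adjusted p below 0.05. This scale understates the changes of low genes. All 7 members passed the filter on low values.

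Of the 7 members, 4 fell in BC roots and 0 rose. That described as growth-regulating factor 1-like fell most, followed by those described as factor 9, 4-like and 3-like. Those described as factor 2, 5-like and 3 were also lower on average but did not pass the test. Across all tested genes 23.5% were called lower in BC, 22.8% higher and 46.4% in either direction. Counts for the other lists below are to be set against the same shares. The median log2 fold change of the members was -0.66, against -0.02 over all tested genes. The samples of the groups did not overlap for the 4 called members, and 30.0% of all tested genes had all 3 BC values below all 3 WT values (27.1% had them above, as did 0 members). All 7 members had a negative log2 fold change, as did 51.1% of all tested genes. In bulk tissue, fewer cells that express a gene and less RNA per cell cannot be told apart. The share of all tested genes called lower was 15.2% without WT replicate 3.

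**Figure D1:**
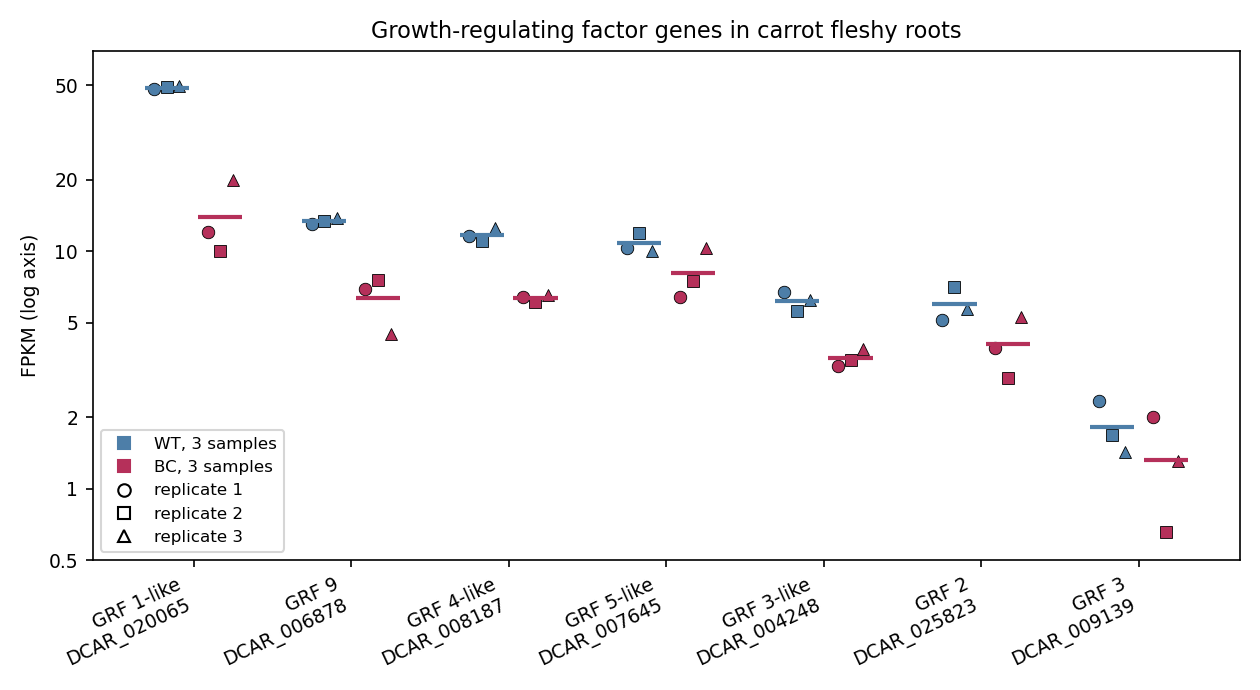
FPKM of each growth-regulating factor gene in each sample, on a log axis, with WT in blue, BC in red, 1 symbol per replicate number and a bar at each group mean. The 3 BC points of the 1-like gene lie between 10.05 and 19.89 FPKM and the 3 WT points between 48.16 and 49.57 FPKM, while the groups overlap for the genes described as factor 5-like, 2 and 3.

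The gene described as growth-regulating factor 1-like (DCAR_020065.v1.0) was the most abundant member in both groups. In Arabidopsis, growth-regulating factor 1 promotes leaf growth together with its close relatives. Its level was 48.16, 49.04 and 49.57 FPKM in WT replicates 1 to 3 and 12.09, 10.05 and 19.89 FPKM in BC replicates 1 to 3. The WT samples were nearly equal, and the highest BC sample stood well below the lowest WT sample. Mean levels were 48.9 ± 0.712 FPKM in WT and 14.0 ± 5.19 FPKM in BC (SD, n = 3 each), a ratio of BC to WT of 0.286. The log2 fold change was -1.79 (SE 0.23, limma adjusted p = 0.00113).

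Second in WT was the gene described as growth-regulating factor 9 (DCAR_006878.v1.0). Arabidopsis growth-regulating factor 9 has been reported to restrict rather than promote leaf growth. The table lists a WRC domain but no QLQ domain for this carrot gene, and both domains for each of the other 6 members. The WT samples had 12.98, 13.45 and 13.84 FPKM and the BC samples 6.97, 7.55 and 4.48 FPKM, without overlap. Here BC replicate 3 was the lowest sample, whereas it was the highest BC sample for 5 of the 7 members. How many of all tested genes were highest in that BC sample was not computed. The means were 13.4 ± 0.431 and 6.33 ± 1.63 FPKM, a ratio of 0.472, and the log2 fold change was -1.0 (SE 0.19, limma adjusted p = 0.00531).

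A growth-regulating factor 4-like gene (DCAR_008187.v1.0) had the smallest spread of all members among BC samples, relative to its mean. In rice, growth-regulating factor 4 raises grain size and nitrogen use. The WT samples had 11.56, 11.03 and 12.49 FPKM and the BC samples 6.42, 6.13 and 6.57 FPKM, again without overlap. The ratio of means was 0.545 (11.7 ± 0.739 and 6.37 ± 0.224 FPKM), and the fitted log2 fold change was -0.78 (SE 0.11, limma adjusted p = 0.00177).

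Lower in level was the gene described as growth-regulating factor 3-like (DCAR_004248.v1.0). WT replicates gave 6.77, 5.58 and 6.23 FPKM, and BC replicates 3.29, 3.47 and 3.86 FPKM, without overlap. Means were 6.19 ± 0.596 and 3.54 ± 0.291 FPKM, the ratio was 0.572 and the log2 fold change was -0.66 (SE 0.13, limma adjusted p = 0.00759). The UniProt entry of this gene also names DCAR_008187.v1.0, so reads of the 2 may be hard to part, and their values are uncertain to that extent. RSEM, named in the submitters' processing notes, divides reads that similar genes share.

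Differences for the other 3 members did not pass the test. The gene described as growth-regulating factor 2 (DCAR_025823.v1.0) gave 5.15, 7.09 and 5.71 FPKM for WT against 3.93, 2.94 and 5.3 FPKM for BC. BC replicate 3 lay inside the WT range and the other BC samples below it. The log2 fold change was -0.48 with a 95% interval from -0.99 to 0.02 (limma adjusted p = 0.104). Without BC replicate 3 it was -0.65 and passed the test (limma adjusted p = 0.0343), as it did with quantile normalization (log2 fold change -0.70, limma adjusted p = 0.0144).

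The growth-regulating factor 5-like gene (DCAR_007645.v1.0) showed the same arrangement of samples. Arabidopsis growth-regulating factor 5, which has no miR396 site, promotes cell division in leaves. Values were 10.31, 11.99 and 10.08 FPKM for WT against 6.45, 7.52 and 10.34 FPKM for BC, so that BC replicate 3 again lay inside the WT range. The log2 fold change was -0.39, with a 95% interval from -0.82 to 0.04 (limma adjusted p = 0.118). It was -0.56 without BC replicate 3 (limma adjusted p = 0.0202) and -0.49 with quantile normalization (limma adjusted p = 0.0406).

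The gene for growth-regulating factor 3 (DCAR_009139.v1.0) was the lowest member in both groups. Values were 2.34, 1.69 and 1.43 FPKM for WT against 2.01, 0.66 and 1.31 FPKM for BC, and the groups overlapped. The log2 fold change was -0.31 with a 95% interval from -0.92 to 0.31 (limma adjusted p = 0.366). This gene and the 3-like gene DCAR_004248.v1.0 share a description number but differed in level by more than the spread of either in both groups.

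The order of levels within the family was steeper in WT than in BC. In WT the 1-like gene (mean 48.9 FPKM) was followed by the gene for factor 9 (13.4), the 4-like gene (11.7), the 5-like gene (10.8), the 3-like gene (6.19), the gene for factor 2 (5.98) and that for factor 3 (1.82). The ranges of the WT samples overlapped for the 4-like and 5-like genes and for the 3-like gene and factor 2, and for no other neighbours in that order. In BC the order was 1-like (14.0 FPKM), 5-like (8.10), 4-like (6.37), factor 9 (6.33), factor 2 (4.06), 3-like (3.54) and factor 3 (1.33). All neighbours in the BC order had overlapping ranges, except the 3-like gene and factor 3.

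The members together reached 97.3, 99.9 and 99.4 FPKM in the WT samples and 41.2, 38.3 and 51.8 FPKM in the BC samples. The means were 98.8 ± 1.38 and 43.7 ± 7.08 FPKM, a ratio of BC to WT of 0.443. The 1-like gene supplied 49.5%, 49.1% and 49.9% of this sum in WT and 29.4%, 26.2% and 38.4% in BC. Without it the other 6 genes summed to 49.1, 50.8 and 49.8 FPKM in WT and to 29.1, 28.3 and 31.9 FPKM in BC, a ratio of 0.596. The 5-like gene, one of those that did not pass the test, took 10.9% ± 0.970 of the sum in WT and 18.4% ± 2.39 in BC. BC replicate 3 had the highest sum of the BC samples, mostly through the 1-like and 5-like genes. Since the members were chosen with results known, these sums are a description and carry no test.

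**Figure D2:**
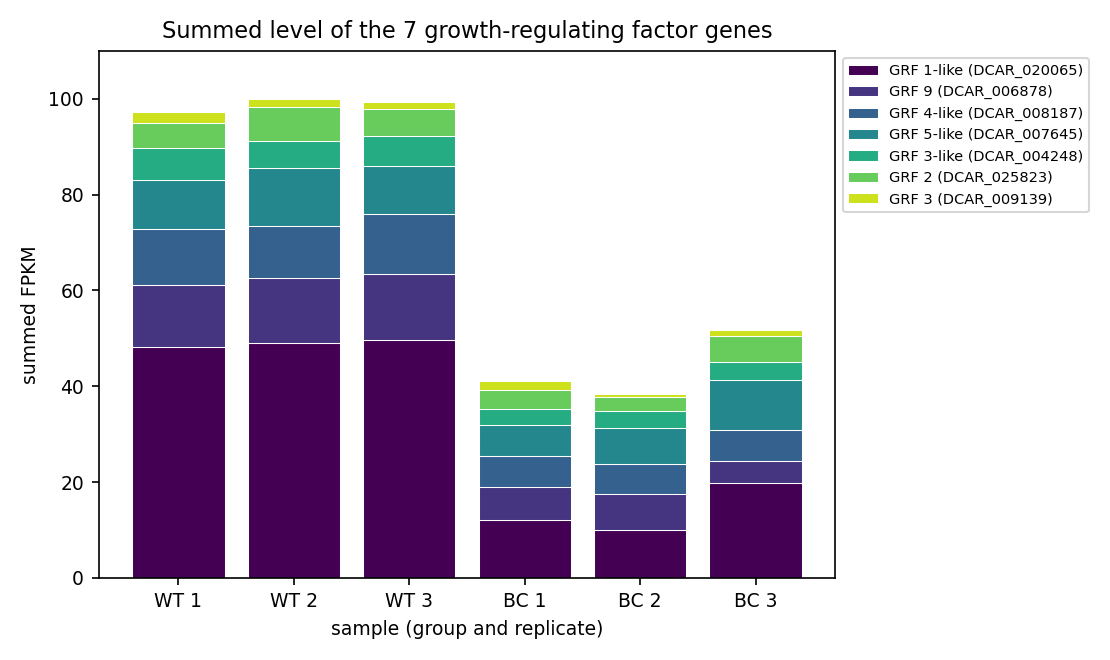
Summed FPKM of the growth-regulating factor genes in each sample, stacked by gene in the order of their WT means. The WT bars reach 97.3 to 99.9 FPKM and the BC bars 38.3 to 51.8 FPKM, and the bottom segment, the 1-like gene, shrinks most.

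The table holds other rows with this name, which the 7 do not cover, so the 7 are not the whole family. Besides the members, 3 rows are described as growth-regulating factors in NR and 7 in UniProt alone, which makes 17 rows in all. Of the 10 rows outside the members 6 passed the filter, of which 2 fell and 1 rose, and their log2 fold changes had a median of -0.14. Of the 3 rows named in NR, 1 passed the filter, DCAR_024949.v1.0, described as growth-regulating factor 4-like. The WT samples had 16.99, 22.26 and 18.24 FPKM and the BC samples 15.81, 16.22 and 20.27 FPKM, with overlap. Its log2 fold change was -0.13, with a 95% interval from -0.48 to 0.22 (limma adjusted p = 0.507), and the interval for the other 4-like gene, the member DCAR_008187.v1.0, ran from -1.05 to -0.52. In BC this row, at a mean of 17.4 FPKM, stood above the mean of every member.

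Other rows behaved unlike each other. DCAR_008567.v1.0 ranged from 12.69 to 20.29 FPKM over WT samples and from 9.67 to 21.44 FPKM over BC samples (log2 fold change -0.05, 95% interval from -0.76 to 0.66), and DCAR_000322.v1.0 at 7.07 ± 1.27 and 6.35 ± 1.66 FPKM (log2 fold change -0.15, 95% interval from -0.67 to 0.37). Both carry QLQ and WRC domains, and neither passed the test. DCAR_020773.v1.0, with a WRC domain alone, fell from 3.6, 7.34 and 3.66 FPKM in WT to 0.34, 0.07 and 0.84 FPKM in BC (log2 fold change -2.03, SE 0.31, limma adjusted p = 0.00245). Its BC values were all below 1 FPKM, so this row passed the filter only through the WT samples, where it was high. DCAR_013539.v1.0, also with WRC alone, rose from 1.17 ± 0.540 to 2.89 ± 0.824 FPKM and passed the test (limma adjusted p = 0.0308, log2 fold change 0.85). That call was lost without WT replicate 1 or 3, without BC replicate 1 or 3, with the replicate number as a covariate and with quantile normalization (limma adjusted p between 0.0707 and 0.105). DCAR_017003.v1.0, which NR describes as homeobox protein cut, fell from 26.4 ± 4.25 to 18.8 ± 1.91 FPKM (limma adjusted p = 0.0411), but no longer passed without WT replicate 1 or 3, without any 1 BC replicate and with no filter, median-ratio size factors, quantile normalization or the replicate number as a covariate.

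The remaining rows were too low to test. The 10-like gene DCAR_006786.v1.0 was listed at 0 in all 6 samples. A second 3-like gene (DCAR_013369.v1.0) was at 0.75, 1.23 and 0.95 FPKM for WT against 0.31, 0.26 and 0.37 FPKM for BC. DCAR_020360.v1.0 was at 0.850 ± 0.389 and 0.273 ± 0.166 FPKM, and DCAR_008970.v1.0 at 0.8, 1.08 and 1.35 FPKM against 0.1, 0 and 0 FPKM. All 17 rows together summed to 176 ± 7.41 FPKM in WT and 106 ± 15.6 FPKM in BC, a ratio of 0.602, and the 10 outside the members to 77.6 ± 6.23 and 62.4 ± 8.85 FPKM, a ratio of 0.805.

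**Figure D3:**
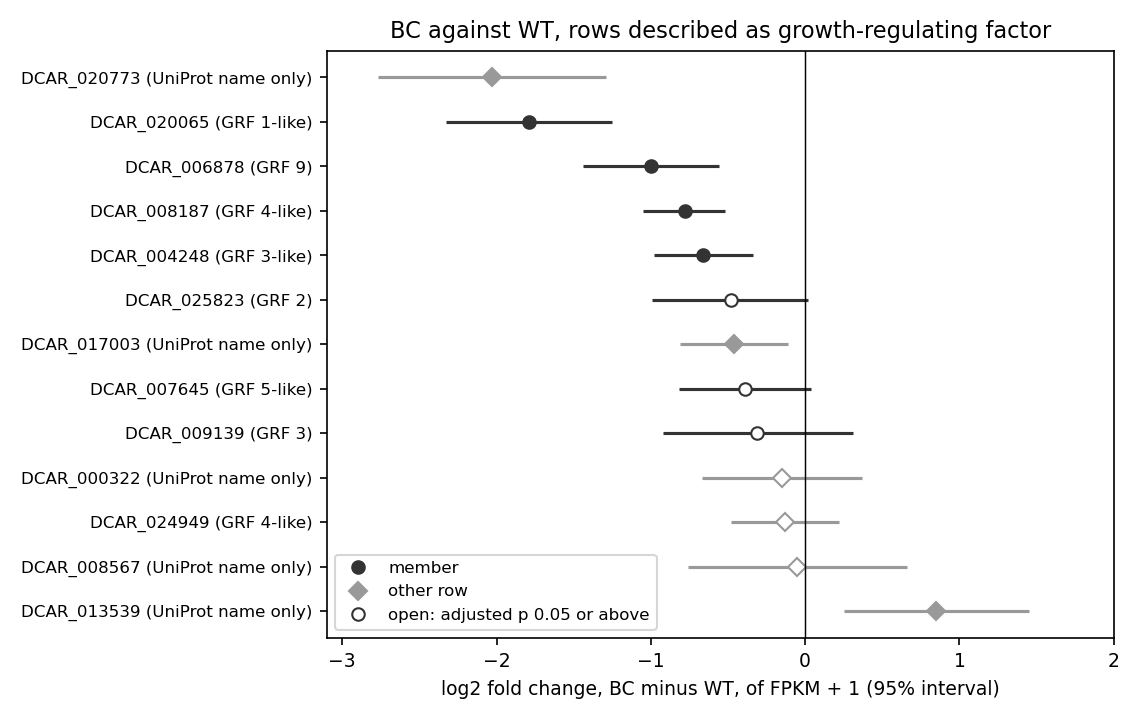
Log2 fold change of FPKM + 1, BC minus WT, with its 95% interval from limma, for the members (circles) and the other tested rows described as growth-regulating factors (diamonds), filled where the adjusted p was below 0.05. The members run from -1.79 to -0.31, and the other rows from -2.03 to 0.85.

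GRF-interacting factors, the co-activators that bind the QLQ domain, showed no called change with limma (0 of 3 tested at an adjusted p below 0.05, and 0 of 3 at an unadjusted p below 0.05). The most abundant was DCAR_006989.v1.0, described as GRF1-interacting factor 2, with 69.17, 58.2 and 65.17 FPKM for WT against 57.17, 57.99 and 50.1 FPKM for BC. All BC samples lay below all WT samples, and the log2 fold change was -0.22 with a 95% interval from -0.46 to 0.03 (limma adjusted p = 0.127). With samples rescaled to equal totals it was -0.32 and passed the test (limma adjusted p = 0.0272), where the median over all tested genes was -0.11. DCAR_008969.v1.0, GRF1-interacting factor 2-like, was at 32.7 ± 1.75 and 30.6 ± 0.803 FPKM (log2 fold change -0.09, 95% interval from -0.29 to 0.11).

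Genes described as factor 1 of this co-activator group were low and uneven. DCAR_012526.v1.0 gave 1.44, 8.42 and 2.73 FPKM for WT against 1.75, 0.4 and 2.61 FPKM for BC (log2 fold change -0.87, 95% interval from -2.21 to 0.46). DCAR_028383.v1.0 did not pass the filter, at 0.813 ± 0.332 and 1.10 ± 1.42 FPKM. The table lists a second 2-like gene (DCAR_014559.v1.0) at 0 in the 3 WT samples and BC replicate 1, and at 8.76 and 10.97 FPKM in BC replicates 2 and 3, and was not tested either. The 5 rows summed to between 98.1 and 106 FPKM in WT and between 92.6 and 98.4 FPKM in BC.

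Of 12 tested rows with SWI/SNF in their description 2 fell (23.5% of all tested genes were called lower) and 0 rose. Their median log2 fold change was -0.10. These include 5 described as subunits or components of the complex, of which 2 fell (median -0.27), and 7 described as SWI/SNF-related helicases, of which 0 were called (median 0.02). The list does not hold the BRM-like motor subunit, DCAR_005356.v1.0, which fell from 25.4 ± 0.485 to 17.1 ± 2.53 FPKM (limma adjusted p = 0.01000). That row was found through its QLQ domain and picked out with its values known. Other subunits described without the term SWI/SNF were not searched for, so it does not add to the count. SWI3B (DCAR_023022.v1.0), a core subunit, fell from 21.9 ± 1.77 to 13.4 ± 1.27 FPKM (log2 fold change -0.67, limma adjusted p = 0.00371). The other was SWI3C (DCAR_003565.v1.0), picked out with its values known, at 16.5 ± 2.56 and 10.6 ± 1.80 FPKM, which no longer passed when WT replicate 1 or 3, or BC replicate 1 or 2, was left out. The most abundant row, SWI3D (DCAR_028991.v1.0), had means of 46.7 ± 9.13 and 38.5 ± 7.30 FPKM, a difference short of the test (limma adjusted p = 0.255).

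TCP transcription factors, a second family that controls organ growth, were mostly lower in BC where they changed. Of 13 tested 8 fell and 1 rose, and the median log2 fold change was -0.84, and 5 fell without WT replicate 1. The counts hold 1 pair, DCAR_031027.v1.0 and DCAR_031028.v1.0, with identical values in all samples, which are not separate observations. The TCP8-like gene DCAR_012989.v1.0 fell from 102 ± 25.5 to 27.0 ± 3.66 FPKM (log2 fold change -1.85, SE 0.20, limma adjusted p = 0.000593), and the most abundant, TCP7 (DCAR_002594.v1.0), from 155 ± 48.8 to 73.0 ± 14.2 FPKM. In Arabidopsis TCP4 raises miR396, which represses growth-regulating factors. Carrot rows described as TCP4 or TCP4-like went both ways. The one described as TCP4 (DCAR_019587.v1.0) rose, from 35.92, 47.29 and 42.7 FPKM in WT to 49.37, 69.5 and 65.27 FPKM in BC. All BC samples lay above all WT samples, and the fitted log2 fold change was 0.53 (SE 0.16, limma adjusted p = 0.0338). The call was lost with samples rescaled to equal totals and when WT replicate 1 or 3, or BC replicate 2 or 3, was left out (limma adjusted p between 0.0860 and 0.0997). A TCP4-like gene at a much lower level, DCAR_021280.v1.0, fell from 3.16, 2.4 and 2.2 FPKM to 1.42, 0.14 and 0.29 FPKM, without overlap (log2 fold change -1.22, limma adjusted p = 0.0174), but did not pass without WT replicate 1 (limma adjusted p = 0.0583). Another TCP4-like row, DCAR_009768.v1.0, reached at most 0.07 FPKM and was not tested. The level of miR396 itself was not analysed here.

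KNOX homeobox genes include some that hold meristem cells undifferentiated and are bound by growth-regulating factors in cereals. The list was not split by type, so its counts do not stand for such genes alone. In it 3 of 9 tested rows rose and 0 fell, beside 22.8% higher and 23.5% lower over all tested genes. With samples rescaled to equal totals 2 fell, and 1 fell with quantile normalization, with a pseudocount of 5 or without WT replicate 1. A 6-like row, DCAR_031124.v1.0, rose, with means of 0.550 ± 0.216 and 2.96 ± 1.70 FPKM. Its log2 fold change was 1.28 (limma adjusted p = 0.0163), a call lost with quantile normalization (limma adjusted p = 0.0747). All its WT values were below 1 FPKM, so only its BC values carried it past the filter. DCAR_031125.v1.0 matched the same RefSeq gene and was not tested. It was above 0 only in WT replicate 2 (1.28 FPKM) and BC replicate 2 (2.22 FPKM). A more abundant 6-like row, DCAR_026531.v1.0, rose from 20.4 ± 3.73 to 30.2 ± 3.01 FPKM (limma adjusted p = 0.0228). Dropping BC replicate 1 or 2, or WT replicate 1 or 3, removed this last call. The most abundant, the 3-like gene DCAR_022904.v1.0, had means of 47.7 ± 3.14 and 41.9 ± 1.95 FPKM, a difference short of the test.

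AINTEGUMENTA-like factors, which sustain cell division in young organs, rose in 1 of 7 tested rows and fell in 0. Over all tested genes 22.8% were called higher and 23.5% lower. The row that rose, AIL1 (DCAR_012824.v1.0), gave 2.8, 13.13 and 4.74 FPKM for WT against 43.04, 17.01 and 77.69 FPKM for BC (log2 fold change 2.55, SE 0.65, limma adjusted p = 0.0186). All BC samples were above all WT samples, but BC replicate 2 stood only a little above WT replicate 2. The call was lost without WT replicate 1 or 3, without BC replicate 1 and with the replicate number as a covariate (limma adjusted p between 0.0554 and 0.0647). Without BC replicate 2, 3 rows rose.

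Of genes that set organ size by other routes, 4 of 11 tested were lower and 2 higher, beside 23.5% and 22.8% of all tested genes. Their median log2 fold change was -0.06. BIG BROTHER is a ubiquitin ligase that limits organ growth in Arabidopsis. The carrot row described as BIG BROTHER itself, DCAR_029667.v1.0, had means of 19.2 ± 3.96 and 18.2 ± 3.63 FPKM and was not called (log2 fold change -0.08, 95% interval from -0.56 to 0.40). A BIG BROTHER-like row, DCAR_031558.v1.0, rose, with means of 7.47 ± 0.926 and 11.5 ± 1.24 FPKM (limma adjusted p = 0.0155). Its call was lost with the replicate number as a covariate and on leaving out WT replicate 1 or 3 or BC replicate 1. The 3 rows described as BIG BROTHER-related fell: DCAR_008875.v1.0 from 14.6 ± 1.19 to 3.70 ± 0.361 FPKM, DCAR_030709.v1.0 from 64.5 ± 2.22 to 35.9 ± 1.85 FPKM and DCAR_020233.v1.0 from 27.6 ± 1.57 to 20.9 ± 1.86 FPKM. The last call was lost with the replicate number as a covariate and on leaving out WT replicate 2 or 3 or BC replicate 1 or 2 (limma adjusted p between 0.0535 and 0.0835). Also lower was a row described as cytochrome P450 78A5-like (DCAR_026467.v1.0), named with its values known. It fell from 24.7 ± 6.38 to 10.4 ± 1.04 FPKM (log2 fold change -1.15, limma adjusted p = 0.00310). A gene of the ARGOS type (novel3047), which promotes organ growth in Arabidopsis, rose, with means of 10.4 ± 0.451 and 29.0 ± 4.69 FPKM and a log2 fold change of 1.38 (limma adjusted p = 0.000347). For organ size genes 4 rows rose with no filter, and 1 rose with the replicate number as a covariate and without WT replicate 1 or 3 or BC replicate 1.

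Markers of dividing cells went the opposite way to the members where they changed, with 11 of 24 tested higher in BC and 1 lower. The median log2 fold change was 0.80, and the 26 rows summed to between 404 and 583 FPKM in WT and between 542 and 740 FPKM in BC. The mitotic cyclin DCAR_022936.v1.0 rose from 1.39, 3.95 and 1.13 FPKM to 11.19, 10.84 and 19.21 FPKM, without overlap (log2 fold change 2.28, limma adjusted p = 0.00312). KNOLLE, a syntaxin of the forming cell plate (DCAR_024230.v1.0, picked out with its values known), rose from 2.15 ± 0.731 to 10.9 ± 4.64 FPKM. The cyclin that fell was DCAR_020592.v1.0, from 18.7 ± 0.905 to 7.42 ± 0.586 FPKM. The rows for proliferating cell nuclear antigen (PCNA) did not change. DCAR_007406.v1.0 had means of 25.8 ± 6.11 and 25.5 ± 9.09 FPKM (limma adjusted p = 0.898), and DCAR_011777.v1.0 of 3.77 ± 2.72 and 3.54 ± 2.70 FPKM (limma adjusted p = 0.890). No row described as a D3 cyclin was called either, so the rise did not extend to all markers in the list. Most of the summed level came from novel3143, described as cyclin-B1-2-like, with means of 307 ± 42.7 and 353 ± 25.9 FPKM, which passed the test only without WT replicate 2 (limma adjusted p = 0.0470). The part of dividing cells in the levels of the growth-regulating factors was not tested.

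**Figure D4:**
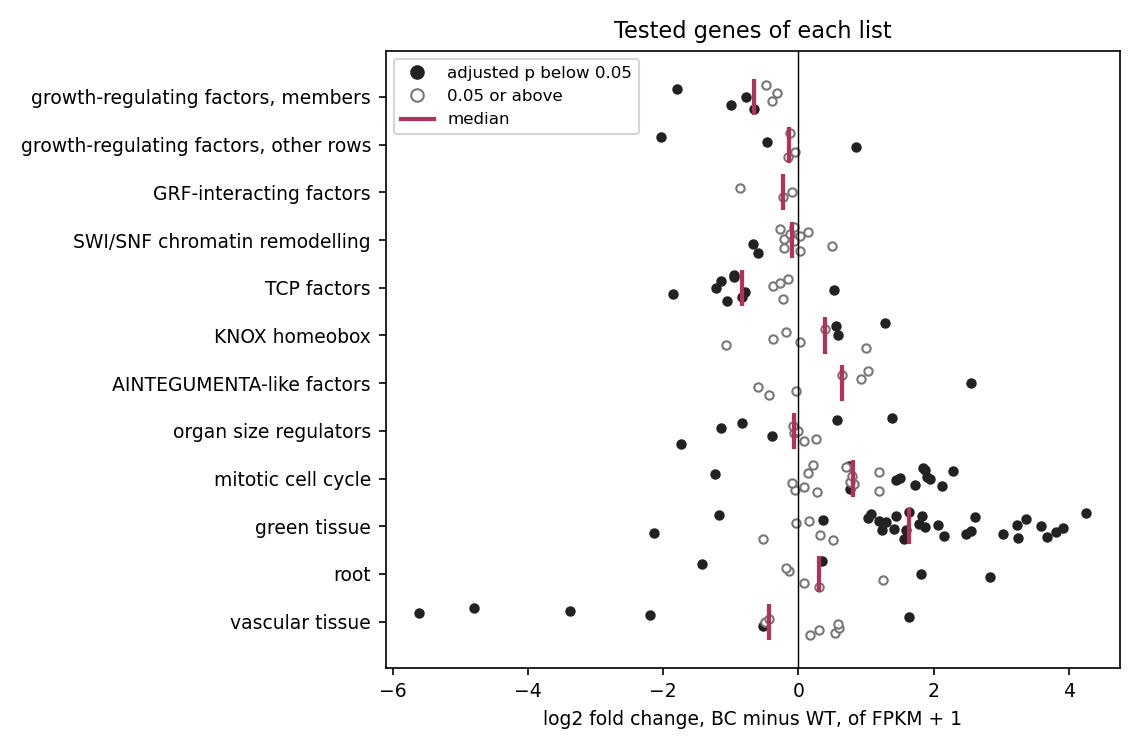
Log2 fold change of FPKM + 1, BC minus WT, of each tested gene of the members and of the lists. The lists are of partners, related regulators, dividing cells and words for tissues. Points are filled where the adjusted p was below 0.05, and a red bar marks the median. The medians are -0.66 for the members, -0.84 for TCP factors, 0.80 for mitotic genes and 1.63 for green tissue.

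Rows matched by words for tissues also moved between the groups. Of 35 tested green-tissue genes 28 rose and 2 fell (1 with a filter at 5 FPKM or the replicate number as a covariate, or without WT replicate 1 or 3 or BC replicate 1), and their sum was 2683 to 4367 FPKM in WT and 13463 to 14574 FPKM in BC. Vascular markers summed to between 345 and 1083 FPKM in WT and between 76.2 and 150 FPKM in BC, with 5 of 13 tested lower and 1 higher (2 higher without WT replicate 1 or BC replicate 2, and 0 with a filter at 5 FPKM). Most of that sum was phloem protein 2-like genes such as novel558, at 419 ± 247 and 40.7 ± 29.7 FPKM. The row that rose was novel2760, described as cysteine protease XCP2-like, from 1.22 ± 0.338 to 5.94 ± 1.15 FPKM (limma adjusted p = 0.000813). Rows described as SIEVE ELEMENT OCCLUSION B-like were not called (DCAR_011272.v1.0 at 1.90 ± 1.11 and 3.59 ± 2.64 FPKM, DCAR_015068.v1.0 at 2.03 ± 1.23 and 2.97 ± 2.34 FPKM). The sum thus does not stand for vascular tissue as a whole. Of the rows matched by root words 3 of 9 tested rose and 1 fell (22.8% and 23.5% of all tested genes). The sums were 226 to 243 FPKM in WT and 256 to 310 FPKM in BC. Root phototropism protein 2 (DCAR_018580.v1.0) rose most, from 2.72 ± 0.512 to 25.5 ± 3.01 FPKM. A root phototropism protein 3-like row (DCAR_029190.v1.0) fell from 36.1 ± 5.88 to 12.9 ± 2.24 FPKM. A name with such a word does not make a row a marker of root tissue. SHORT-ROOT (DCAR_010820.v1.0), which patterns the root, was detected in every sample, with 1.42, 2.53 and 1.5 FPKM for WT against 8.04, 0.77 and 16.92 FPKM for BC. Its groups overlapped, and it passed the test only without BC replicate 2 (limma adjusted p = 0.00491). A second SHORT-ROOT-like row (DCAR_005468.v1.0) and a WOX5-like row (DCAR_018901.v1.0) were listed at 0 in all samples. The row described as WOX5 (DCAR_011793.v1.0) was low, at 0.43, 0.15 and 1.14 FPKM for WT against 1.48, 0 and 0.15 FPKM for BC, and was not tested. WOX4, a cambium regulator (DCAR_019432.v1.0), rose from 13.42, 10.1 and 5.53 to 38.68, 20.09 and 52.54 FPKM, without overlap (log2 fold change 1.81, limma adjusted p = 0.0119). SHORT-ROOT and WOX4 were picked out with their values known. The part of these tissues in the levels of the growth-regulating factors was not tested.

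By gene order in the RefSeq assembly DH1 v3.0, used here for names and neighbours, 12 rows of the table lay directly beside a member. Of the 10 tested, 2 fell and 2 rose, which is near the shares over all tested genes (23.5% lower and 22.8% higher). Next to the 1-like gene lay a gene for pre-mRNA-processing protein 40A (DCAR_020063.v1.0), a splicing factor, which fell from 60.0 ± 6.36 to 41.2 ± 2.58 FPKM. On its other side lay a ribonucleoprotein gene (DCAR_020066.v1.0) at 11.2 ± 1.96 and 10.8 ± 2.44 FPKM, with a log2 fold change of -0.05. Beyond that lay a gene described as AINTEGUMENTA, as are others elsewhere, listed in the table as DCAR_020068.v1.0 and DCAR_020067.v1.0. The first was at 13.6 ± 7.38 and 32.5 ± 22.3 FPKM and passed the test only without BC replicate 2 (limma adjusted p = 0.0262). The second was at 8.84 ± 5.59 and 17.7 ± 14.6 FPKM and was not called (log2 fold change 0.64, limma adjusted p = 0.538). Beside the gene for factor 9 lay the mitotic kinase Aurora-3 (DCAR_006879.v1.0), which rose, with means of 2.06 ± 1.09 and 6.58 ± 2.54 FPKM (limma adjusted p = 0.0221). That call was lost without WT replicate 1 or 3, without BC replicate 1 or 3 and with the replicate number as a covariate (limma adjusted p between 0.0625 and 0.0806). The 4-like gene lay beside novel905, described as cadmium-induced protein AS8, which fell from 31.1 ± 2.30 to 11.3 ± 1.52 FPKM.

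The patterns most like those of the 2 most abundant members were found by Pearson correlation of log2(FPKM + 1) over the 6 samples, among tested genes with an informative description. For the 1-like gene DCAR_020065.v1.0 these were a clathrin assembly protein gene (DCAR_006214.v1.0, r = 0.9988), the rRNA biogenesis gene RRP5 (DCAR_016871.v1.0, r = 0.9988) and a DDB1- and CUL4-associated factor 8 gene (DCAR_006033.v1.0, r = 0.9987). RRP5 gave 23.73, 24.82 and 24.79 FPKM for WT against 14.57, 13.7 and 17.42 FPKM for BC, with the same order of BC samples as the 1-like gene. For the gene of factor 9, DCAR_006878.v1.0, they were a copper-zinc superoxide dismutase gene (DCAR_017048.v1.0, r = 0.9976), a cyanate hydratase gene (DCAR_030758.v1.0, r = 0.9969) and a potassium channel gene (DCAR_001493.v1.0, r = 0.9961), in which BC replicate 3 was again the lowest sample. These values are a description: the points share 6 libraries, which fall into 2 groups. The genes were picked for this likeness, so a shared order of samples follows from the selection and is no separate result.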

How the data were processed

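RNA-seq of fleshy roots gave 6 samples in 2 groups of 3, and table columns were assigned through the description each sample carries. The authors deposited 1 table of FPKM values per gene, rounded to 2 decimals, with NR, UniProt and Pfam annotation. The submitters' processing notes name RSEM without a version, and for the aligner, genome build and gene annotation nothing is stated in the sources used here. FPKM are not counts and depth is unknown, so no counting interval is given. FPKM summed to between 1141946 and 1186758 per WT sample and between 1184875 and 1287459 per BC sample. Samples correlated (Pearson, tested genes) at 0.974 to 0.988 inside the WT group, 0.953 to 0.979 inside the BC group and 0.826 to 0.853 across them.

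The model was limma (version 3.58.1, R 4.3.3, eBayes with a trend) on log2(FPKM + 1), with Benjamini-Hochberg adjustment over 21033 genes. It was also run on simulated data with independent genes and far fewer changed genes than were called here. That run therefore does not show how the adjusted p-values behave in these data. The members and lists were chosen with earlier results of these data known. Lists are search words matched in NR and UniProt descriptions and can catch genes of other function. Named genes were the members, all rows of GRF-interacting and growth-regulating factors, the genes most like the 2 most abundant members, and, per other list, its most abundant gene and the called genes at both ends of the fold changes. Some genes under this rule are not printed. Further TCP4, BIG BROTHER, SWI/SNF, KNOX and WOX5 rows were named with their values known. Fits without a sample kept the same genes. No sequences were used. Figures used matplotlib (version 3.10.9).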

Additional observations from a re-analysis of the deposited data

How the results depend on the processing

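The 4 members called lower in BC were called lower in every fit run: with a pseudocount of 0.1 or 5, no filter or one at 5 FPKM, scaling by totals, by median ratios or by quantiles, eBayes with no trend, a replicate block, and any 1 sample removed. The gene for factor 3 was not tested under the filter at 5 FPKM. No member changed sign. With quantile normalization and without BC replicate 3 the number called lower was 6, the additions being DCAR_025823.v1.0 (log2 fold change -0.70 and -0.65) and DCAR_007645.v1.0 (-0.49 and -0.56). Over fits without 1 sample, DCAR_020065.v1.0 ranged from -2.05 to -1.59, DCAR_006878.v1.0 from -1.13 to -0.80, DCAR_008187.v1.0 from -0.82 to -0.74, DCAR_004248.v1.0 from -0.73 to -0.61, DCAR_025823.v1.0 from -0.65 to -0.32, DCAR_007645.v1.0 from -0.56 to -0.26 and DCAR_009139.v1.0 from -0.51 to -0.08. The count of all genes lower in BC, 4943 in the main analysis, ranged from 3193 (without WT replicate 3) to 5203 over fits without 1 sample, and was 5647 with equal totals and 6023 with quantile normalization. The cause was not tested. The WT mean of the member sum was 103 FPKM with equal totals, against 98.8 as deposited, and the BC mean 42.5 against 43.7. Restricting all genes to locus IDs, chosen after seeing the data, left 8126 called. Deviations of same-numbered samples from their group means correlated at 0.196, -0.356 and -0.195, and WT replicate 2 correlated best with BC replicate 3 (0.394). With 3 samples per group such deviations constrain each other, so these values cannot decide whether replicate numbers pair the samples. With the replicate block 4 members and 7953 genes in all were called.
Of 62 other named genes followed over these fits, 42 were called. Of the called genes 27 kept the call in every fit and 15 lost it in at least 1, and 6 uncalled genes gained one. Some rows named with their values known were not among the 62.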

Other observations

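The domains that define growth-regulating factors also occur in rows not named so, which were picked out after their values were seen. The table lists 8 further rows with a WRC or QLQ domain, 5 with another description and 3 without an informative one; 7 were tested, 6 fell and 0 rose, and the median log2 fold change was -0.59. DCAR_011951.v1.0, without an informative description, carries both domains, as a growth-regulating factor does. It gave 20.45, 21.79 and 20.47 FPKM for WT against 14.17, 11.52 and 16.23 FPKM for BC, without overlap (log2 fold change -0.56, limma adjusted p = 0.0156), and did not pass without WT replicate 3 (limma adjusted p = 0.0545). The 4 rows described as lysine-specific demethylase JMJ25 or JMJ25-like, each with a WRC domain, all fell. Histone demethylases of this type remove repressive methylation in Arabidopsis. DCAR_004126.v1.0 gave 39.21, 37.71 and 39.79 FPKM for WT against 19.47, 17.29 and 23.44 FPKM for BC, without overlap (log2 fold change -0.93, limma adjusted p = 0.00132). DCAR_004152.v1.0 had means of 54.0 ± 7.92 and 29.4 ± 5.44 FPKM (log2 fold change -0.86, limma adjusted p = 0.00570). The other two were low: DCAR_024927.v1.0 had 4.48 ± 0.657 and 2.46 ± 0.554 FPKM, and did not pass when WT replicate 2 or 3, or BC replicate 1 or 2, was left out. DCAR_028148.v1.0 had 3.84 ± 0.296 and 2.24 ± 0.514 FPKM, and did not pass with the replicate block or without any 1 sample except BC replicate 3.

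A BRM-like helicase, the motor subunit of SWI/SNF complexes, carries a QLQ domain (DCAR_005356.v1.0). It gave 25.09, 25.07 and 25.92 FPKM for WT against 15.42, 15.82 and 19.99 FPKM for BC, without overlap (log2 fold change -0.55, limma adjusted p = 0.01000). BC replicate 3 was the highest BC sample for this gene and for the 4 demethylase rows, as it was for 5 of the 7 growth-regulating factor members. The share of all tested genes with that sample highest was not computed, so the order does not set these rows apart.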
